A study of Mus musculus with 9 samples.

Results

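The levels of 6 genes of the liver's fasting response were followed through 9 mouse liver libraries: Ppara, Creb3l3, Pdk4, Vnn1, Fgf21 and Angptl4. They were taken by gene name from the table of raw gene counts, which lists 54532 genes, and each name matched 1 row, so that all 6 genes are described. All 6 also passed the filter on low counts that left 14025 genes for testing.

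The livers came from C57BL/6 mice on normal chow. The young group held 3 mice aged 8 weeks, whose sex the labels do not state and for which they describe no injection. The mice of both old groups were male. The old control group (3 mice, aged 20 months) had received AAV9-shRNA-Neg, an adeno-associated virus that carries a hairpin RNA without a target, at 14 months. The old Fabp4 shRNA group (3 mice, also aged 20 months) had received AAV9-shRNA-Fabp4 at 14 months, and both viruses had been given through the tail vein and into the fat under the skin. Age and injection therefore cannot be told apart in either comparison with young liver. The labels used here state neither the hour of killing nor a fast, and they do not name the promoter that drives the hairpin. Their extraction text names NRVMs, while source and tissue are given as liver.

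PPARalpha is a nuclear receptor that binds fatty acids and, paired with RXR, switches on genes of fatty acid uptake, oxidation and ketone body production when fat becomes the liver's main fuel. In the fasted liver this programme runs beside the glucagon and glucocorticoid responses. CREB-H, the protein of Creb3l3, is a membrane-bound transcription factor of hepatocytes that works with PPARalpha on Fgf21. The products of the other members act on fuel choice (PDK4), on coenzyme A turnover (VNN1) and as secreted signals (FGF21 and ANGPTL4).

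The 9 libraries held between 14243344 and 17125440 counts. Each had all 10 markers of hepatocytes. Their summed level was 111633 to 152732 CPM (counts scaled to a common library total) in young liver and 113092 to 131077 CPM in old control. It was 96197 to 110422 CPM in old Fabp4 shRNA, so that this group lay below every other library. Alb, a marker among them, made up 5.34% to 10.4% of a library's counts, so that these sums are in large part Alb. Whether the other markers separated the groups was not tested. The sums of 3 other marker lists also separated groups, with no gene at 0 in the first pair of them. Endothelial genes (8) summed to 76.5 to 90.6 CPM in young liver and 95.7 to 241 CPM in the old livers, and red cell genes (6) to 506 to 948 CPM in young and 185 to 403 CPM in old livers. Bile duct genes (6, at most 1 of them at 0 in a library) summed to 24.6 to 46.3 CPM in old Fabp4 shRNA, 47.3 to 52.5 CPM in young and 72.2 to 158 CPM in old control. The part of these cell types in the differences between groups was not tested. A pair of features of the libraries bears on the members. One young library carries a column name that matches none of the titles and is referred to as the unnumbered young library. Its 20 genes of skeletal muscle summed to 4926 CPM of total counts, with none at 0, against 20.6 to 144 CPM in the other 8 libraries. The highest of those 8 was old Fabp4 shRNA replicate 3, with 1 muscle gene at 0. In addition, the FPKM values deposited under the name of the unnumbered young library belong to a different library from its counts: whole reads recovered from them gave other values for every member, and these are given beside the counts. The targeted gene Fabp4 ranged from 7.21 to 13.6 CPM in old control and from 3.81 to 11.2 CPM in the group labelled old Fabp4 shRNA, so that these groups overlapped.

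Unless stated otherwise, levels are CPM scaled by TMM factors, and libraries follow the order young 1, unnumbered and 5, old control 1, 2 and 5, and old Fabp4 shRNA 1, 3 and 6. Differences are log2 fold changes with their standard error (SE) from edgeR's quasi-likelihood test over all 9 libraries. A gene was called where its p, adjusted over all genes tested by the Benjamini-Hochberg method, was under 0.05. Both comparisons with young liver share the young libraries, and the comparisons with old control share those libraries, so that the 3 sets of values are not independent. In whole tissue, fewer cells of a type and less RNA per cell cannot be told apart. Statements that groups did or did not overlap are descriptions. For values without a group difference, 2 groups of 3 separate fully with a probability of 0.1. The share of all genes that separated was not counted.

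No member was called in any of the 3 comparisons by edgeR. In old control against young liver 0 of 6 members were called, beside 0.0357% of all genes tested. The count between the old groups was 0 of 6, beside 0% of all genes. Between old Fabp4 shRNA and young liver, 0 of 6 were called beside 0.057%. At an unadjusted p under 0.05, 0 of 6 members were higher and 0 were lower in old control liver than in young liver, where 6.42% of all genes were higher and 4.07% were lower. Between the old groups 1 member, Ppara, was higher and 0 were lower at that level, beside 3.27% and 3.48% of all genes. Ppara was also the 1 member higher at that level when old Fabp4 shRNA was set against young liver, beside 4.43% higher and 4.5% lower among all genes.

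Leaving out the unnumbered young library changed these counts. Then Pdk4, Fgf21 and Angptl4, 3 of 6 members, were higher at an unadjusted p under 0.05 in the old control livers, and 0 were lower, beside 5.64% and 4.75% of 14413 genes. For old Fabp4 shRNA the same 3 and Ppara, 4 of 6, were higher than in young liver and 0 were lower, beside 6.95% and 5.58%. With the recovered reads in its place, Pdk4 and Fgf21 were higher in old control and all members but Vnn1 in old Fabp4 shRNA, with 0 lower. The background was then 7.88% higher and 5.98% lower of 13922 genes in the first comparison, and 9.75% and 7.43% in the second. No member was called in either setting. The median log2 difference of the 6 members from young liver was 0.37 in old control and 0.85 in old Fabp4 shRNA with all libraries, and 0.59 and 1.17 without the unnumbered one. The median over all genes tested was 0.01 and 0.02 with all libraries and 0.02 and 0.04 without that one.

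**Figure D1:**
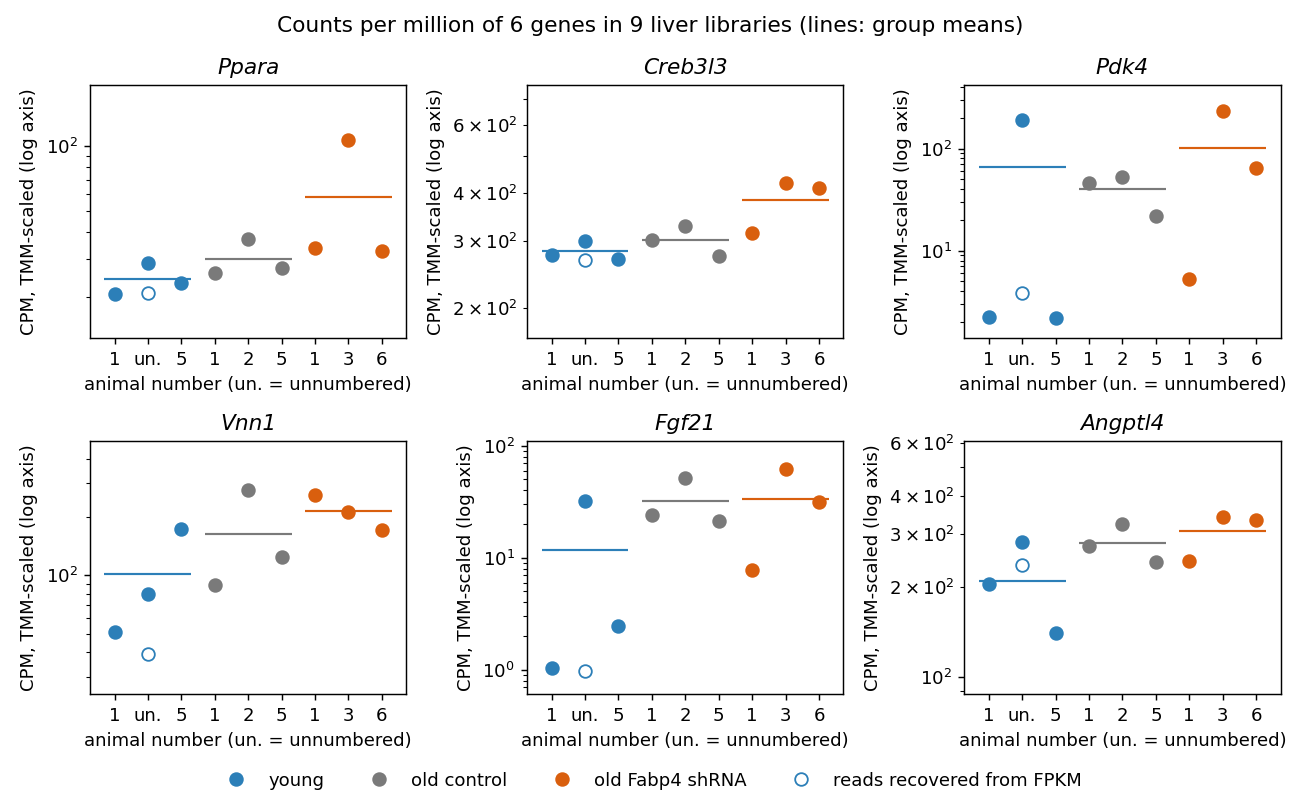
Level of the 6 genes in each library, as CPM scaled by TMM factors on log axes. Filled points are single livers, short lines are group means of 3 libraries, and the open point is the value from the reads recovered from the FPKM column named for the unnumbered young library (un.). Pdk4 and Fgf21 spread the most: Pdk4 ran from 2.21 to 233 CPM and Fgf21 from 1.03 to 61.9 CPM, while Creb3l3 stayed between 269 and 424 CPM.

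Per transcript length, the members ranked Creb3l3, Angptl4, Vnn1, Fgf21, Pdk4 and Ppara by their median FPKM over the 8 libraries whose FPKM and counts match. Those medians were 96.3, 74.3, 69.7, 22.7, 9.14 and 7.56 FPKM. Every pair of neighbours in this order overlapped in range: Creb3l3 lay between 86.6 and 136 FPKM, Angptl4 at 41.6 and above, Vnn1 between 20.4 and 110.4, Fgf21 between 1.06 and 62.9, Pdk4 between 0.612 and 64.3, and Ppara between 5.19 and 27.0. The 2 most abundant members varied least between livers, and Fgf21 and Pdk4 varied most. On the CPM scale the highest library was 1.58 times the lowest for Creb3l3, 2.41 times for Angptl4, 5.24 times for Ppara, 5.43 times for Vnn1, 59.8 times for Fgf21 and 105 times for Pdk4.

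Ppara (ENSMUSG00000022383, chromosome 15, 85734983 to 85802819, plus strand, GRCm38), which encodes the receptor itself, was at 20.5, 28.5 and 23.1 CPM in young liver and at 25.7, 36.9 and 27.2 CPM in old control. In the old Fabp4 shRNA libraries it was at 33.8, 107 and 32.7 CPM. Replicate 3 of that group stood far above every other library, and its 2 companions lay above all young libraries but below old control replicate 2. The group means were 24.0 ± 4.11, 29.9 ± 6.10 and 57.9 ± 42.8 CPM (SD, n = 3 each). The log2 difference between old Fabp4 shRNA and young was 1.27 ± 0.42, with an adjusted p of 0.458 in edgeR. Against old control it was 0.95 ± 0.41 (adjusted p = 0.728 in edgeR). Without old Fabp4 shRNA replicate 3 these values became 0.47 ± 0.23 and 0.15 ± 0.23 (edgeR's adjusted p = 0.949 and 0.977). That library also had the highest muscle sum of its group, and the part of muscle RNA in its Ppara level was not tested. Old control differed from young liver by 0.31 ± 0.41 (adjusted p = 0.826 in edgeR).

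The genes that act with the receptor were taken as 15 partners, coactivators and corepressors, and none of them was called in any comparison. For this list and those below, counts at an unadjusted p under 0.05 are to be read beside the shares of all genes given above. Lists this short cannot tell a count of 1 from those shares. By an unadjusted p under 0.05, 1 of 15 was higher in old Fabp4 shRNA than in old control, and 0 were lower. This was Rxra, the partner with which PPARalpha binds DNA, whose mean was 383 CPM in old Fabp4 shRNA and 228 CPM in old control, a log2 difference of 0.75 ± 0.22 (adjusted p = 0.728 in edgeR). All 3 old Fabp4 shRNA libraries lay above all 3 old controls for Rxra, at 351, 425 and 372 CPM against 254, 248 and 183 CPM. Young liver held 291, 363 and 294 CPM, within the span of the old groups. Old control had 0 of 15 higher than young liver and 1 lower at that level: Lpin1, a phosphatidate phosphatase that also acts as a coactivator, with a log2 difference of -0.85 ± 0.35. Set against young liver, the old Fabp4 shRNA group had 2 higher and 2 lower, among them Lpin1 at -0.99 ± 0.35, the corepressor Ncor1 at 0.62 ± 0.24 and the coactivator Ppargc1a at -0.78 ± 0.32. The count of lower genes changed without the unnumbered young library, which also left only 2 young libraries for the test. Then 0 of 15 were lower in both comparisons with young liver (0 and 1 with the recovered reads). Lpin1 kept its direction, at -0.69 and -0.81 (edgeR's adjusted p = 0.540 and 0.403). Ppargc1a was at -0.54 in old Fabp4 shRNA against young liver (adjusted p = 0.548 in edgeR). Ppargc1a was at 22.3 CPM in the counts of that library and at 7.87 CPM in the recovered reads. With the recovered reads 1 gene was called in old Fabp4 shRNA against young liver, where 0.445% of all genes were. This was the coactivator Lpin2, higher by 1.12 ± 0.22 (adjusted p = 0.0447 in edgeR), against 0.64 ± 0.27 (adjusted p = 0.525) with all counts.

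Creb3l3 (ENSMUSG00000035041, chromosome 10, 81084324 to 81098874, minus strand) was the steadiest member. It was at 276, 299 and 269 CPM in young liver, at 302, 327 and 273 CPM in old control and at 315, 424 and 413 CPM in old Fabp4 shRNA. All old Fabp4 shRNA libraries lay above all young ones, and replicate 1 of that group overlapped with old control. The means were 281 ± 15.7, 301 ± 27.0 and 384 ± 60.0 CPM (SD, n = 3 each). In edgeR the old Fabp4 shRNA group differed by 0.35 ± 0.21 from old control and by 0.45 ± 0.21 from young liver, with adjusted p of 0.788 and 0.557. Its difference between old control and young was 0.10 ± 0.21, with a 95% interval of -0.35 to 0.55 (adjusted p = 0.898 in edgeR).

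Among 13 genes related to CREB-H (relatives, the proteases that release such factors from the membrane, and targets), none was called. In old control against young liver 12 of 13 had a positive log2 difference, with a median of 0.68 where all genes had 0.01, and 2 had an unadjusted p under 0.05, both higher. These were Apoc2, the activator of lipoprotein lipase, at 1.24 ± 0.36 (8.52 against 3.62 CPM) and the lipid droplet protein Cidec at 1.82 ± 0.77 (39.7 against 11.2 CPM). Without the unnumbered young library the Cidec difference was 2.76 (edgeR's adjusted p = 0.321), the median of the list was 0.77 and 4 genes were higher. The recovered reads gave a median of 0.35 and 3 higher genes. Between the old groups 0 were higher and 2 were lower in old Fabp4 shRNA at the same level: Apoc2 at -0.95 ± 0.35 and Hamp, the iron hormone hepcidin, at -1.58 ± 0.58. For old Fabp4 shRNA and young liver the count was 0 in both directions, and 1 higher in either of those settings.

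Pdk4 (ENSMUSG00000019577, chromosome 6, 5483351 to 5496309, minus strand) encodes a kinase that blocks the pyruvate dehydrogenase complex and so spares glucose when fat is burnt. It was at 2.22, 192 and 2.21 CPM in young liver, which correspond to 30, 3000 and 29 counts. Old control held 46.0, 53.1 and 22.03 CPM, and old Fabp4 shRNA 5.25, 233 and 64.4 CPM. The unnumbered young library stood with the highest old library, while the other young libraries lay below every old one. Old Fabp4 shRNA replicate 1 was closer to young replicates 1 and 5 than to any other old liver. The means were 65.3 ± 109, 40.4 ± 16.3 and 101 ± 118 CPM (SD, n = 3 each).

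The reads recovered for the unnumbered young column from FPKM gave Pdk4 as 3.89 CPM, from 40 reads, close to the other young livers. The direction of the difference between old control and young liver turned with this library. It was -0.70 ± 1.86 with all counts (edgeR's adjusted p = 0.921), 4.15 ± 1.62 without the library (adjusted p = 0.466) and 3.85 ± 1.27 with the recovered reads (adjusted p = 0.277). Old Fabp4 shRNA against young liver gave 0.63 ± 1.85, 5.52 ± 1.71 and 5.21 ± 1.33 in the same order, with edgeR's adjusted p of 0.940, 0.308 and 0.133. Skeletal muscle also expresses Pdk4, and the muscle sum of 4926 CPM in the counts of that library stood beside its 192 CPM of Pdk4. Its part in the Pdk4 level was not tested. Against old control, old Fabp4 shRNA gave 1.32 ± 1.88 (95% interval -3.18 to 5.83, adjusted p = 0.933 in edgeR), and -0.21 ± 2.10 without its replicate 3.

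The pyruvate dehydrogenase list (the complex, its other kinases and its phosphatases) had 9 of 10 genes tested and 0 called in each comparison. Set against old control, 2 of 9 were higher in old Fabp4 shRNA at an unadjusted p under 0.05 and 0 lower. They were Pdp2, a phosphatase that opposes PDK4, at 0.64 ± 0.26 (40.4 against 25.9 CPM) and Pdhx, a structural subunit, at 0.46 ± 0.21. Pdk2, a kinase that acts like PDK4, was the 1 gene lower in old control at that level when set against young liver, at -0.63 ± 0.21 (74.1 against 114.8 CPM), and 0 were higher. Against young liver, old Fabp4 shRNA had 1 gene higher (Pdp2, 0.99 ± 0.27) and 1 lower (Pdk2, -0.57 ± 0.21). The count of lower genes in old control against young liver was 2 without the unnumbered library.

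Fgf21 (ENSMUSG00000030827, chromosome 7, 45613886 to 45615490, minus strand) encodes a hormone that the liver releases on fasting and under protein stress. Its level in young liver was 1.03, 32.1 and 2.44 CPM, from 14, 502 and 32 counts. In old control it was 24.2, 51.5 and 21.4 CPM, and in old Fabp4 shRNA 7.69, 61.9 and 31.6 CPM. As with Pdk4, young replicates 1 and 5 lay below every old liver, old Fabp4 shRNA replicate 1 was the lowest of the old livers, and the unnumbered young library fell among the old ones. The recovered reads gave 0.971 CPM from 10 reads for that column. The means were 11.8 ± 17.5, 32.4 ± 16.6 and 33.7 ± 27.2 CPM (SD, n = 3 each).

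The log2 difference of Fgf21 between old control and young liver was 1.44 ± 1.27 with all counts (edgeR's adjusted p = 0.725). Without the unnumbered young library it was 4.19 ± 1.00 (adjusted p = 0.269), and with the recovered reads 4.40 ± 0.84 (adjusted p = 0.0960). For old Fabp4 shRNA against young liver the values were 1.5 ± 1.27, 4.30 ± 1.00 and 4.50 ± 0.84, with edgeR's adjusted p of 0.748, 0.206 and 0.0630. Between the old groups the difference was 0.06 ± 1.23, with a 95% interval of -2.86 to 2.98 (adjusted p = 0.997 in edgeR), and it was -0.71 ± 1.45 without old Fabp4 shRNA replicate 3.

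The receptors of FGF21 and the stress genes that accompany it made a list of 11, of which 0 were called in each comparison. Trib3, a pseudokinase of the ATF4 stress response, was the 1 gene with an unadjusted p under 0.05 in old control against young liver, lower at -1.26 ± 0.34 (7.92 against 19.0 CPM), and 0 were higher. It was also the 1 lower gene in old Fabp4 shRNA against young liver, at -0.91 ± 0.34, where 0 were higher. Set against old control, old Fabp4 shRNA had Klb, the coreceptor beta-Klotho, as the 1 higher gene, at 0.81 ± 0.35 (20.8 against 11.8 CPM), and 0 were lower. Both comparisons with young liver had 1 higher gene in place of 0 without the unnumbered library and with the recovered reads.

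**Figure D2:**
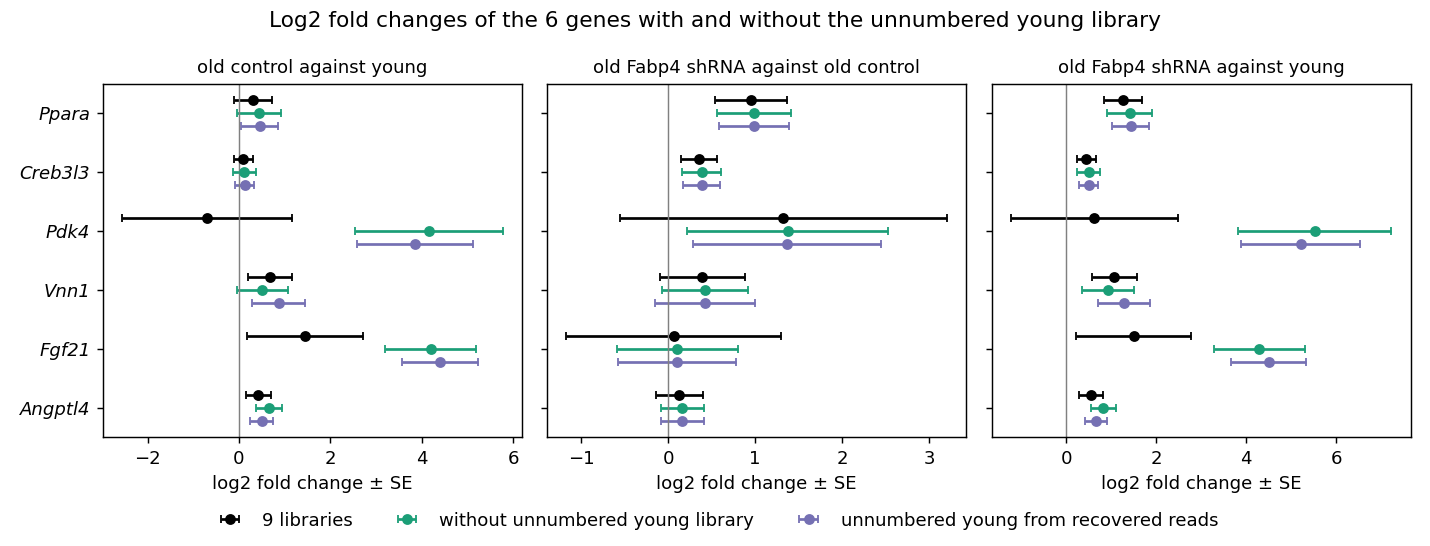
Log2 fold changes of the 6 genes in the 3 comparisons, with bars of 1 SE from edgeR, for all 9 libraries (black), without the unnumbered young library (green) and with its counts replaced by reads recovered from FPKM (violet). Pdk4 and Fgf21 moved from -0.70 and 1.44 to 4.15 and 4.19 in old control against young liver when the library was left out, and the middle panel changed little.

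The stretch of DNA before the start of Pdk4 and of Fgf21 is shown because these members followed each other most closely from liver to liver. Both are read along the gene's strand from RefSeq's windows on GRCm38.p6, and they end where the annotated gene begins. The Pdk4 stretch is chr6:5496310-5496528 and the Fgf21 stretch chr7:45615491-45615740, both on the minus strand. Capitals mark the matches found in the second: the reverse complement of TGACG, which is the core of the element that cAMP-responsive factors bind, and the E-box CACGTG, a sequence that clock factors bind.
Pdk4: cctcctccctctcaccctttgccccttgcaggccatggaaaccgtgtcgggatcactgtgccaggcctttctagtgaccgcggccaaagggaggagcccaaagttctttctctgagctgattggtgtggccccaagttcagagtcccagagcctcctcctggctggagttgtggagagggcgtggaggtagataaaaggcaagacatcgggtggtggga
Fgf21: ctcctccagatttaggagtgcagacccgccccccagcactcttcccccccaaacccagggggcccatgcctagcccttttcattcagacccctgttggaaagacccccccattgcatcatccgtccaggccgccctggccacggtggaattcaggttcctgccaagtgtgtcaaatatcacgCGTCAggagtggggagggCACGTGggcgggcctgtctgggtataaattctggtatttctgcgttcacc

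Windows of 250 bases before to 50 bases after the start were found for 4 of the 6 members, with 5 windows in all, since Creb3l3 has 2. Each was searched on both strands for 2 copies of AGGTCA spaced by 1 base (the repeat that PPARalpha and RXR bind, with at most 2 of its 12 bases changed), for AGGTCA alone, which can lie inside that repeat, for TGACG, the core of the cAMP response element, for GTAAACA, a site that forkhead factors bind, and for the E-box CACGTG. The spaced repeat occurred in 1 window, the inner one of Creb3l3, as aggggagaggtca with 2 mismatches. It began 209 bases before the start site around which that window is placed, and so inside the window. This window lies within the annotated gene. Its end was not found near the start of any annotated Creb3l3 transcript, unlike the ends of the other windows near their own transcripts. The spaced repeat was present in 3.86% of 32851 windows of the genome. CACGTG, found in the Fgf21 window 50 bases before the start, occurred in 7.15% of all windows, and TGACG, found in 1 window each of Fgf21, Creb3l3 and Ppara, in 20.8%. AGGTCA occurred in 16.3% of windows, among the members in the inner window of Creb3l3 alone, as part of the spaced repeat. GTAAACA, found in 3.65% of windows, was in none of the 5. The Pdk4 window held none of these letters.

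Angptl4 (ENSMUSG00000002289, chromosome 17, 33773750 to 33781830, minus strand) encodes a secreted inhibitor of lipoprotein lipase. It was at 204, 282 and 141 CPM in young liver, at 273, 324 and 242 CPM in old control and at 243, 340.1 and 334 CPM in old Fabp4 shRNA. Young replicates 1 and 5 were the lowest of the 9 libraries, and the unnumbered young library, at 282 CPM from the counts and 236 CPM from the recovered reads, brought the young group into the range of the old ones. The means were 209 ± 70.5, 279.8 ± 41.2 and 306 ± 54.3 CPM (SD, n = 3 each). In edgeR, old control differed from young liver by 0.42 ± 0.27 (adjusted p = 0.597), and by 0.67 ± 0.28 without the unnumbered library (adjusted p = 0.450). Old Fabp4 shRNA differed from young liver by 0.55 ± 0.27, and by 0.83 ± 0.28 without that library (adjusted p = 0.286 in edgeR). Between the old groups the difference was 0.13 ± 0.27 (adjusted p = 0.956 in edgeR).

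The other genes of lipase control made a list of 9, with 0 called in each comparison. Set against old control, the old Fabp4 shRNA group had 1 higher and 2 lower genes by an unadjusted p under 0.05. Lipg, endothelial lipase, was higher by 1.54 ± 0.39 (7.75 against 2.65 CPM), and its 2 groups did not overlap. Apoc2, among the lower ones, differed by -0.95 ± 0.35. In old control against young liver 1 was higher (Apoc2) and 1 lower, which was the hepatic lipase Lipc at -0.54 ± 0.20 (98.8 against 143 CPM). For old Fabp4 shRNA and young liver 1 was higher (Lipg, 1.28 ± 0.38) and 3 lower. Lpl, the lipase of muscle and fat, was among the lower ones at -2.66 ± 0.97, and its difference was -0.54 without the unnumbered young library (edgeR's adjusted p = 0.503). The counts without that library were 2 higher and 1 lower in old control, and 2 and 2 in old Fabp4 shRNA, against young liver. With the recovered reads Lipg was called in the latter comparison, at 1.82 ± 0.35 (edgeR's adjusted p = 0.0446).

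Vnn1 (ENSMUSG00000037440, chromosome 10, 23894688 to 23905343, plus strand) encodes the pantetheinase that breaks down a product of coenzyme A, and it is a well-known PPARalpha target of the liver. It was at 50.7, 80.5 and 174 CPM in young liver, at 88.8, 276 and 124 CPM in old control and at 259, 211 and 172 CPM in old Fabp4 shRNA. Here the libraries took another order: young replicate 5 was the highest young library and old Fabp4 shRNA replicate 1 the highest of its group, while both were low for Pdk4 and Fgf21. The means were 102 ± 64.3, 163 ± 99.1 and 214 ± 43.3 CPM (SD, n = 3 each). In edgeR the old Fabp4 shRNA group differed from young liver by 1.07 ± 0.49 (adjusted p = 0.557) and from old control by 0.39 ± 0.49 (adjusted p = 0.918). Old control differed from young liver by 0.68 ± 0.49 (adjusted p = 0.646). Without young replicate 5 that value was 1.31 ± 0.45, and without old control replicate 2 it was 0.06 ± 0.44. Without old control replicate 2 the difference between the old groups became 1.01 ± 0.46 (edgeR's adjusted p = 0.700).

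The 7 other genes of coenzyme A turnover had 0 called in each comparison. Set against old control, 1 was higher in old Fabp4 shRNA and 1 lower at an unadjusted p under 0.05. Coasy, which completes coenzyme A, was at 129.9 against 84.5 CPM (0.62 ± 0.21), and Vnn3, a relative of Vnn1, at 66.5 against 104 CPM (-0.65 ± 0.26). Coasy was also the 1 higher gene in old Fabp4 shRNA against young liver, at 0.50 ± 0.21, with 0 lower, or 1 lower without the unnumbered young library. Old control against young liver had 0 in both directions.

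Across the 9 livers the members were compared in all 15 pairs on log2 CPM with a prior count of 2. Every pair had a positive Pearson correlation, and 4 had a Benjamini-Hochberg adjusted p under 0.05 over the 15 pairs in an exact two-sided permutation test. By Spearman's rho 10 of the 15 pairs did in the same test. The permutation moved libraries between groups as well, so that differences between groups enter these correlations. On deviations from the group means Vnn1 had a negative r with Creb3l3 (-0.04), Pdk4 (-0.13) and Angptl4 (-0.29). The strongest by Pearson's r was Pdk4 with Fgf21: Pearson's r was 0.926 (exact permutation p = 0.000298, adjusted 0.00446) and Spearman's rho 0.933 (exact permutation p = 0.000750, adjusted 0.00492). Without the 2 libraries farthest from the median of Pdk4 the r was 0.872, and on deviations from the group means it was 0.965. These points share their libraries and their scaling, so that the correlation describes how the levels moved from liver to liver.

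Angptl4 followed the same libraries. Its r was 0.846 with Pdk4 (exact permutation p = 0.00168, adjusted 0.0126) and 0.855 with Fgf21 (exact permutation p = 0.00424, adjusted 0.0159), with rho of 0.933 and 0.917 (exact permutation p = 0.000750 and 0.00131, adjusted 0.00492 for both). Leaving out the 2 farthest libraries gave an r of 0.715 and 0.833, and deviations from the group means gave 0.852 and 0.775. The values on deviations were lower without the unnumbered young library, at 0.685 and 0.501, and with the recovered reads, at 0.667 and 0.323. Ppara with Creb3l3 was the remaining one of the 4 pairs, with an r of 0.791 (exact permutation p = 0.00254, adjusted 0.0127) and a rho of 0.833 (exact permutation p = 0.00827, adjusted 0.0248), an r of 0.657 without the 2 farthest libraries and 0.581 within groups.

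The lowest correlations among the targets were those of Vnn1. Its r was 0.146 with Pdk4 (exact permutation p = 0.701, adjusted 0.701), 0.427 with Fgf21 (exact permutation p = 0.252, adjusted 0.291) and 0.250 with Angptl4 (exact permutation p = 0.525, adjusted 0.563), with rho of 0.1, 0.367 and 0.333 (exact permutation p = 0.810, 0.336 and 0.385, adjusted 0.810, 0.388 and 0.413). Without the 2 farthest libraries these r were -0.33, 0.05 and 0.15. Whether these correlations differ from those of the other pairs was not tested. With the recovered reads the r of Vnn1 was 0.464 with Pdk4, 0.695 with Fgf21 and 0.288 with Angptl4. Ppara and Vnn1 had an r of 0.536 (exact permutation p = 0.127, adjusted 0.173). Their rho was 0.733 (exact permutation p = 0.0311, adjusted 0.0467). Without the unnumbered young library 7 of the 15 pairs had an adjusted p under 0.05 for Pearson's r in the exact permutation test, and with the recovered reads 8 had.

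**Figure D3:**
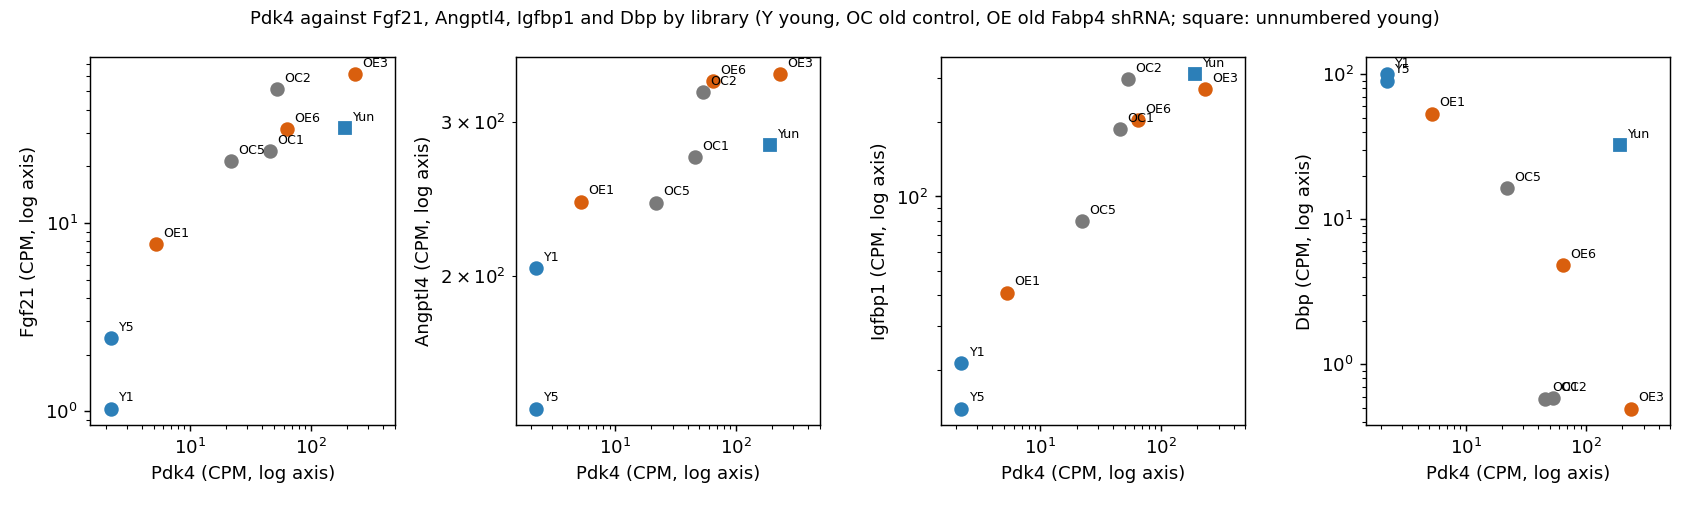
Pdk4 in each library against Fgf21, Angptl4, Igfbp1 and Dbp, all as CPM scaled by TMM factors on log axes. Young replicates 1 and 5 and old Fabp4 shRNA replicate 1 lie at 2.21 to 5.25 CPM of Pdk4 with low Fgf21 and Igfbp1 and high Dbp. Angptl4 was lowest in those young replicates. In old Fabp4 shRNA replicate 1 it was at 243 CPM, level with old control replicate 5 at 242 CPM. The square is the unnumbered young library, with 192 CPM of Pdk4 and 32.4 CPM of Dbp.

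For each member the 3 genes with the most similar pattern were taken by Pearson's r over the 9 libraries, among 9256 genes with a mean of at least 5 CPM. For Ppara these were Acad9 (0.975), Smarcc1 (0.967) and Gnaq (0.966), and for Creb3l3 they were Pdp2 (0.977), Acot8 (0.942) and Cstf2t (0.938). Pdk4 was most like Vezf1 (0.964), Igfbp1 (0.961) and Slc35g1 (0.956), and Fgf21 was most like Adamts1 (0.956), Clic4 (0.948) and Enc1 (0.948). Vnn1 had Gpd2 (0.953), Irak1 (0.926) and Inhbe (0.919), and Angptl4 had Copg1 (0.945), Trp53inp1 (0.940) and Usp53 (0.929). As the highest of 9256 values these are descriptions without a test. Without the unnumbered young library the r of these 18 genes lay between 0.919 and 0.979.

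Igfbp1, an insulin-suppressed and fasting-induced gene that encodes a binding protein of insulin-like growth factors, shared the Pdk4 pattern. It was at 21.3, 312 and 14.0 CPM in young liver, at 187, 298 and 79.5 CPM in old control and at 41.0, 270.1 and 203 CPM in old Fabp4 shRNA. The recovered reads gave 23.6 CPM for the unnumbered column, near the other young livers. Dbp, a clock output gene with a steep daily rhythm, ran the other way: 100.3, 32.4 and 90.1 CPM in young liver, 0.581, 0.589 and 16.4 CPM in old control and 53.5, 0.496 and 4.86 CPM in old Fabp4 shRNA. In the 3 livers with the lowest Pdk4, Dbp was at 53.5 CPM or above, and in the other 6 at 32.4 CPM or below. The part of the time of day in the levels of Pdk4 and Fgf21 was not tested.

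A pair of gluconeogenic genes is given by library for comparison. Pck1, the rate-limiting enzyme of that pathway, was at 5767, 5128 and 2425 CPM in young liver and at 5056, 5442 and 4615 CPM in old control. In old Fabp4 shRNA it was at 2900, 3943 and 4551 CPM. Every old Fabp4 shRNA library thus lay below every old control, by a small gap (4551 against 4615 CPM). Young liver overlapped with both old groups for Pck1. Its lowest values were those of young replicate 5 and old Fabp4 shRNA replicate 1. G6pc, which releases free glucose, was at 95.4, 304 and 110.5 CPM in young liver, 542, 256.2 and 308 CPM in old control and 280.0, 467 and 226 CPM in old Fabp4 shRNA. Its low values were those of young replicates 1 and 5.

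In the list of 16 genes of the fasting hormone response 0 were called in each comparison. In old control against young liver 2 were higher by an unadjusted p under 0.05 and 3 were lower, among them Irs2, an insulin receptor substrate, at 1.48 ± 0.51, the transcription factor Foxo3 at -0.64 ± 0.19 and the gluconeogenic enzyme Fbp1 at -0.86 ± 0.29. The balance turned to 5 higher and 1 lower when the unnumbered young library was left out, and likewise when its recovered reads were used, and Fbp1 was at -0.60 without that library (edgeR's adjusted p = 0.497). Fbp1 was the 1 gene higher in old Fabp4 shRNA than in old control, at 0.82 ± 0.29 (680 against 384 CPM), and 0 were lower. In old Fabp4 shRNA against young liver 1 was higher and 3 lower, the lower ones being Foxo3 at -0.55 ± 0.19, Klf15, a glucocorticoid-induced factor, at -0.70 ± 0.29, and Ppargc1a. This balance also turned, to 4 higher and 1 lower in both settings, with Klf15 at -0.51 and Ppargc1a at -0.54 without the library (edgeR's adjusted p = 0.521 and 0.548).

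The list of the fed state had 12 of 13 genes tested and 0 called. Its counts were 2 higher and 1 lower in old control against young liver (among them Mlxipl at 0.68 ± 0.27 and Elovl6 at -0.70 ± 0.32), 1 and 0 in old Fabp4 shRNA against old control (Me1 at 0.61 ± 0.27) and 1 and 1 in old Fabp4 shRNA against young liver (the lower one Elovl6 at -0.71 ± 0.32). In old control against young liver the counts turned to 1 higher and 2 lower without the unnumbered young library, and to 1 and 5 with the recovered reads. Mlxipl was at 0.49 without the library (edgeR's adjusted p = 0.570). For old Fabp4 shRNA against young liver the counts were 2 and 3 in both settings.

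The wider targets of PPARalpha were read from 4 lists: fatty acid oxidation, ketone bodies, fatty acid hydroxylases with thioesterases, and uptake with lipid droplets. Between the old groups the fatty acid oxidation list had 16 of 19 genes with a positive difference (higher in old Fabp4 shRNA) and a median of 0.38, where all genes had -0.01. Of these 4 were higher at an unadjusted p under 0.05 and 0 lower, beside 3.27% and 3.48% of all genes, and 0 were called. Acaa1b, a peroxisomal thiolase, was at 1337, 1953 and 1724 CPM in old Fabp4 shRNA and at 707, 893 and 594 CPM in old control, without overlap, a log2 difference of 1.19 ± 0.31 (adjusted p = 0.728 in edgeR). Acadvl, a mitochondrial acyl-CoA dehydrogenase, differed by 1.59 ± 0.58 and Hadha, a subunit of the trifunctional protein, by 0.89 ± 0.35. With the recovered reads 7 of 19 were higher, and the median was 0.41. Those reads replace a young library, so that they enter this comparison only through the shared fit. The share of all genes between the old groups was not counted with the recovered reads. Acadvl was highest in old Fabp4 shRNA replicate 3, at 227 CPM against 64.1 and 111 CPM in its companions, and 127 CPM in the unnumbered young library.

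In that comparison the 8 hydroxylases and thioesterases had 7 positive differences, a median of 0.73 and 3 genes higher at an unadjusted p under 0.05, with 0 lower and 0 called. The cytosolic thioesterase Acot1 was at 408 against 143 CPM (1.51 ± 0.54), Acot4 at 156 against 85.0 CPM (0.88 ± 0.28) and Acot3 at 76.4 against 40.5 CPM (0.91 ± 0.40). The Acot genes are close copies of each other, and so are the Cyp4a genes, so that the split of reads among them is uncertain. With the recovered reads in the fit 1 of these 8 was higher at that level, and the median was 0.76. Of the 12 genes of uptake and lipid droplets 10 were positive, the median was 0.44, and 3 were higher at that level with 0 lower and 0 called: Retsat at 0.80 ± 0.33, Fitm2 at 0.70 ± 0.29 and Fabp1, the liver fatty acid binding protein, at 0.70 ± 0.30. The ketone body list of 6 had 0 higher and 1 lower, the transporter Slc16a6 at -0.82 ± 0.36.

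For old control against young liver, fatty acid oxidation had 0 genes of 19 at an unadjusted p under 0.05 in either direction and the hydroxylases and thioesterases 0 of 8. Ketone bodies had 1 higher (Slc16a6, 1.21 ± 0.37) and uptake with lipid droplets 1 higher (Cidec), with 0 lower and 0 called in all 4. Without the unnumbered young library the uptake list had 5 of 12 higher with a median of 0.61, beside 5.64% of all genes higher, and with the recovered reads 5 of 12 with a median of 0.55. In the same order of settings the oxidation list had 1 and 2 of 19 higher, and the hydroxylases 0 and 1 of 8.

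In old Fabp4 shRNA against young liver 18 of 19 oxidation genes were positive with a median of 0.41, and 3 were higher at an unadjusted p under 0.05: the carnitine transporter Slc22a5 at 1.2 ± 0.33, the peroxisomal membrane gene Pex11a at 1.00 ± 0.30 and Acaa1b at 0.98 ± 0.31. The hydroxylases and thioesterases had 3 higher (Acot1 at 2.21 ± 0.56, Acot4 at 1.01 ± 0.28 and Acot2 at 1.47 ± 0.49), uptake with lipid droplets 1 (Plin4 at 0.98 ± 0.43), ketone bodies 0 of 6, and no gene of these lists was lower at that level or called. Without the unnumbered young library the count of higher genes in this comparison was 8 of 19, 4 of 8 and 6 of 12 in the oxidation, hydroxylase and uptake lists, beside 6.95% of all genes. With the recovered reads these counts were 10, 4 and 8, beside 9.75%, and 1 gene was called, Slc22a5 at 1.63 ± 0.26 (adjusted p = 0.0268 in edgeR). The sums of hepatocyte markers, in large part Alb, were lowest in the old Fabp4 shRNA libraries, at 96197 to 110422 CPM. The part of cell types in the differences of these lists was not tested.

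**Figure D4:**
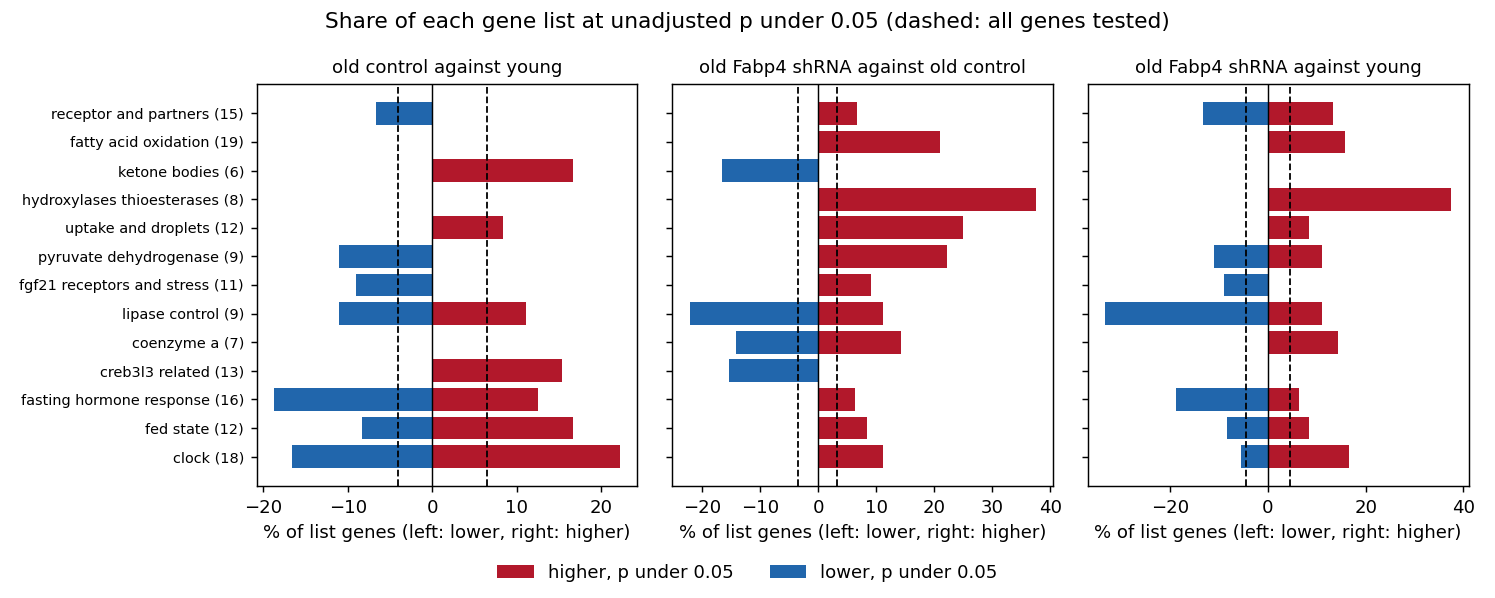
Share of the tested genes of each list (number in brackets) with an unadjusted p under 0.05 in edgeR, higher to the right and lower to the left, in the 3 comparisons over all 9 libraries. Dashed lines are the shares among all genes tested, such as 3.27% higher and 3.48% lower in the middle panel, where the hydroxylases and thioesterases had 3 of 8 genes higher and the fatty acid oxidation list 4 of 19.

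Single targets of PPARalpha outside the members are given by library as well. Cpt1a, which admits fatty acids to mitochondria, was at 379, 645 and 522 CPM in young liver, at 347, 665 and 580 CPM in old control and at 646, 655 and 553 CPM in old Fabp4 shRNA, and all groups overlapped.

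The omega-hydroxylase Cyp4a10 was at 1664, 1170 and 3993 CPM in young liver, at 707, 3657 and 2506 CPM in old control and at 3054, 2449 and 1556 CPM in old Fabp4 shRNA. Cyp4a14 was at 1496, 3381 and 2346 CPM, at 806, 4250 and 2741 CPM and at 4445, 5653 and 4039 CPM in the same order, with old control replicate 1 lowest for both. The recovered reads gave 391 CPM of Cyp4a14 for the unnumbered young column. Plin2, the coat protein of lipid droplets, was at 244, 845 and 424 CPM in young liver, at 605, 1711 and 659 CPM in old control and at 499, 1432 and 1433 CPM in old Fabp4 shRNA, with young replicates 1 and 5 and old Fabp4 shRNA replicate 1 at the bottom, the libraries that were also lowest for Pdk4.

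**Figure D5:**
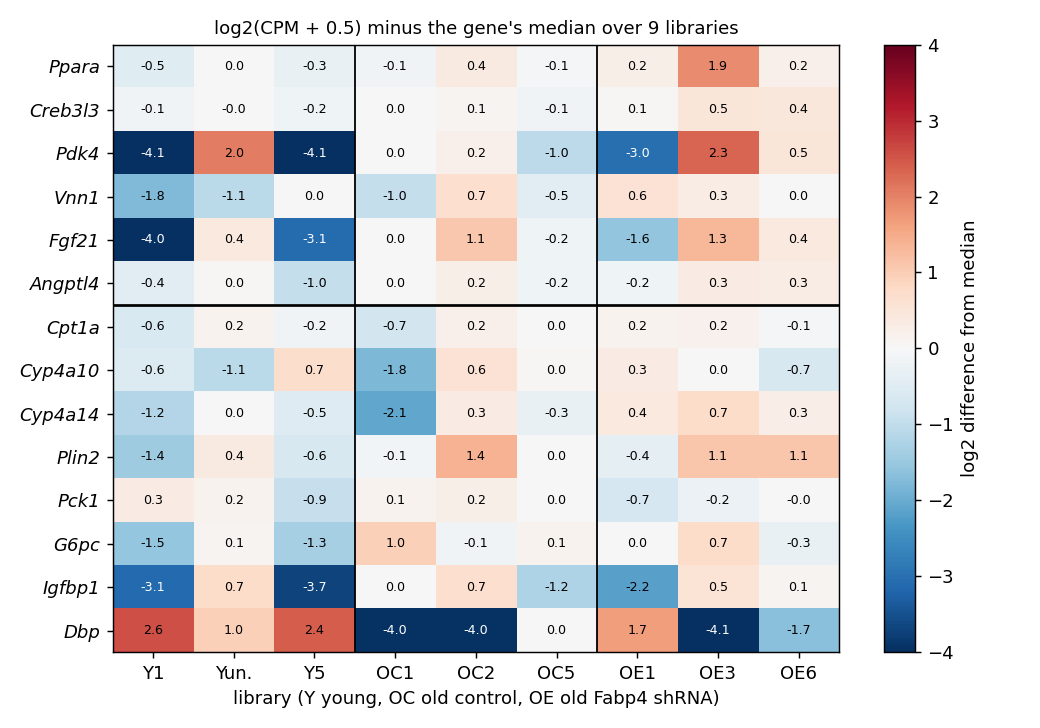
Deviation of each gene from its own median over the 9 libraries, on log2(CPM + 0.5), for the 6 members (above the line) and 8 related genes. Large deviations include the low Pdk4, Fgf21 and Igfbp1 of young replicates 1 and 5 and old Fabp4 shRNA replicate 1, and the low Dbp of old control replicates 1 and 2 and old Fabp4 shRNA replicate 3. Ppara deviates most in old Fabp4 shRNA replicate 3.

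Of the 18 clock genes, 1 was called in each comparison with young liver, the only called gene of the 13 pathway lists over the 9 count libraries. This was Noct, a rhythmic gene that encodes the phosphatase nocturnin, at 20.3, 31.2 and 16.1 CPM in young liver, 228, 246 and 143 CPM in old control and 157, 239.7 and 84.3 CPM in old Fabp4 shRNA. It rose by 3.19 ± 0.40 in old control (edgeR's adjusted p = 0.0121) and by 2.83 ± 0.40 in old Fabp4 shRNA (adjusted p = 0.0287 in edgeR), and no young library overlapped with an old one. Both calls were lost when any 1 of these 4 libraries was left out: replicates 1 and 5 of the young group and replicates 1 and 2 of old control (edgeR's adjusted p between 0.0636 and 0.255). The second was also lost without replicate 5 of old control and without replicate 3 of old Fabp4 shRNA, at edgeR's adjusted p of 0.0533 and 0.0841. At an unadjusted p under 0.05, 4 clock genes were higher and 3 were lower in the old control livers than in the young ones, among them Bhlhe41 at -2.59 ± 0.64 and Cry2 at -1.16 ± 0.29. Without the unnumbered library these counts were 5 and 6. In old Fabp4 shRNA against old control 2 were higher (Nr1d2 at 0.82 ± 0.29 and Cry2 at 0.67 ± 0.29) and 0 lower. In old Fabp4 shRNA against young liver 3 were higher and 1 lower, with Clock at 0.86 ± 0.37 and Bhlhe41 at -1.43 ± 0.60.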

How the data were processed

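Liver RNA of 9 mice (3 groups of 3, which the design text calls independent biological replicates) was sequenced. Per the submitters' processing notes, HISAT2 and the build GRCm38.p6 were used; for the counting tool nothing was given in the sources used here. The table as deposited holds the authors' raw counts per gene, which were tested as deposited. The authors' deposited FPKM values served for levels per length and as an alternative.

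The young column that matches no title was kept in the young group without a number. Its FPKM values were a fixed multiple of its counts (within 0.001 of the ratio) in 0.223% of 11187 genes with at least 20 counts, against 100% in the other 8 columns. Whole reads were recovered from its FPKM column: 13506 values, 100% whole within 0.05 reads, summing to 11805823, with 226 genes not recovered.

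Genes passed filterByExpr. The counts were scaled by TMM (factors 0.825 to 1.15) and tested with edgeR 4.0.16 in 1 model of the 3 groups with Benjamini-Hochberg adjustment, after a test on simulated data. Alternatives used DESeq2 1.42.0, limma 3.58.1, other filters and scalings, recovered reads, animal numbers as a block and each library left out. Correlations used exact permutation of all pairings (numpy 2.4.6). Positions came from GENCODE M21 and promoter windows from RefSeq on GRCm38.p6.

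The members, the 13 pathway lists and the 9 lists of cell type markers were chosen with earlier results of these data known. The text names the 6 members, 8 related genes given by library, each list's called genes and up to 3 with the smallest p where any was under 0.05, and the 3 most similar genes per member. Some results under this rule are not reported here. Markers of hepatocytes, muscle, endothelium, red cells and bile duct are given above. In young, old control and old Fabp4 shRNA the summed CPM of the other lists overlapped between groups: 136 to 270, 186 to 758 and 127 to 259 for macrophages, 9.99 to 22.3, 16.7 to 64.1 and 7.27 to 17.8 for neutrophils, 93.3 to 210, 185 to 324 and 198 to 262 for stellate cells, and 13.5 to 76.2, 30.5 to 33.7 and 21.9 to 44.0 for fat cells, the last highest in the unnumbered young library.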

Additional observations from a re-analysis of the deposited data

How the results depend on the processing

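Of the 18 member differences, 13 kept their direction under all 20 alternatives, and the other 5 turned. Among these, Angptl4 between the old groups turned only with the replicate block, a fit on part of the libraries that is described below. For Pdk4 in old control against young liver, -0.70 became 1.79 with limma-voom, 3.85 with recovered reads, 2.69 and 3.62 with limma-trend on log2(FPKM + 1) and log2(FPKM + 0.1), 3.86 with the replicate block and 4.15 without the unnumbered young library. Leaving out old Fabp4 shRNA replicate 3 turned Pdk4 against old control to -0.21 and against young to -0.91. With each library left out in turn, Pdk4 ran from -1.26 to 4.15 in old control against young, from -0.21 to 1.89 between the old groups and from -0.91 to 5.52 in the last comparison, and Fgf21 from -0.71 to 0.57 between the old groups. Fgf21 between the old groups, at 0.06, became -0.25 with limma-voom, -0.23 and -0.26 on FPKM, and -0.11, -0.16 and -0.71 without old control replicate 1 or 5 or old Fabp4 shRNA replicate 3. The cause was not tested.

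No member was called under DESeq2, voom, any other scaling or filter, or with a library left out. On log2(FPKM + 0.1), limma-trend called 1 member (Fgf21) in each comparison with young liver (adjusted p = 0.0459 and 0.0429). Fits on FPKM also exchange a young library, since the FPKM column of the unnumbered one belongs to a different library from its counts. They therefore change more than the processing. In edgeR 5 genes were called between old control and young, 0 between the old groups and 8 between old Fabp4 shRNA and young. In that order the counts became 137, 8 and 94 without a filter and 164, 4 and 104 with DESeq2. They became 18, 1 and 53 on FPKM + 1 and 21, 1 and 77 on FPKM + 0.1. With voom the first and last were 3 and 0, within the 6 libraries compared 15 and 0, and with recovered reads 10 and 62. With 1 library left out they ranged from 1 to 10, 0 to 1 and 0 to 37. The 0 calls between the old groups stood beside 458 higher and 488 lower genes with an unadjusted p under 0.05. The 4 member pairs became 7 without the unnumbered young library and 8 with recovered reads, and 10 by Spearman's rho. None of the 64 differences of list genes turned in 1278 values. Over all settings, the replicate block below among them, 25 gained and 12 lost a call.

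Animal numbers are shared by some titles (1 and 5 in young and old control, 1 in all groups), but the mice are separate animals. With these numbers as a block, a library whose number no other group shares adds nothing to the differences. The fit rests on replicates 1 and 5 of young and old control and on replicate 1 of old Fabp4 shRNA. That group is then 1 library without a spread of its own. The calls and differences that follow therefore describe these livers and are not results over the groups. As a replicate block the numbers gave 2 members called (Pdk4 and Fgf21, the latter at 3.76), 0 in the main result, in old control against young, and 1 between the old groups, where Pdk4 became -2.95, Fgf21 -1.44 and Angptl4 -0.26. Genes called with the block were 158, 73 and 23. Same-numbered livers of different groups deviated from their group means with an r of 0.112, 0.0295, 0.0882 and -0.05. Pairs with other numbers ran from -0.361 to 0.350. So few values cannot show whether the numbers stand for anything shared. Depth limits the lowest values, which rest on 14 counts of Fgf21 and 29 of Pdk4.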
